A study of Homo sapiens with 12 samples.

Results

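*CA4*, *NOS2*, *TMEM88* and *HAPLN1* are 4 of the 10976 genes with values in these libraries, and they were selected on their values at day 24, where libraries labelled KO lay far below libraries labelled WT. The day 24 difference of these genes is therefore a description, with no test. It was used to choose them, without a fixed limit, and they stood at places 37 (*CA4*), 375 (*NOS2*), 117 (*TMEM88*) and 7 (*HAPLN1*) of 10975 genes ordered from the most negative difference. The cerebral organoids (COs), which are cultures of stem cells that form brain-like tissue, were embedded in Matrigel after neural induction in the paper's protocol. The COs were sampled on day 12 and day 24 of differentiation, between which the culture may therefore differ. Their cells of origin were the human embryonic stem cell line H1 (WT) and KO#2 and KO#10, which carry the *c-Jun* Knockout label, were made from H1 with CRISPR-Cas9 and are each 1 clone. Every library held the total RNA of several pooled COs, and with 2 libraries per line and day, a day had 2 WT and 4 KO libraries, 12 in all. The labels do not say whether libraries of 1 line came from separate cultures, so that p-values measure the spread between these libraries, which may be technical.

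The 4 genes encode proteins of different kinds. Carbonic anhydrases interconvert carbon dioxide and bicarbonate, and *CA4* is the form that is anchored to the outer face of the cell membrane, as in capillary endothelium. *NOS2*, the inducible nitric oxide synthase, makes nitric oxide from arginine and is best known from activated macrophages. *TMEM88* is a membrane protein that binds Dishevelled and dampens WNT signalling, with a known role in the heart lineage, and *HAPLN1* is a link protein that fastens proteoglycans such as versican to hyaluronan in the extracellular matrix.

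In the coordinates that the authors' tables give, which overlapped GENCODE release 29 (GRCh38) for 10975 of the 10976 genes, *CA4* (ENSG00000167434) lay on chromosome 17 from 60149942 to 60170899 on the forward strand. *NOS2* (ENSG00000007171) lay on chromosome 17 from 27756766 to 27800529 on the reverse strand. *TMEM88* (ENSG00000167874) spanned 1034 bp of chromosome 17, from 7855066 to 7856099 on the forward strand. *HAPLN1* (ENSG00000145681) lay on chromosome 5 from 83637805 to 83720855 on the reverse strand. All 4 are protein-coding genes. Chromosome 17 holds 650 of the 10976 genes (5.92%). In GENCODE release 29, exons of *NOS2* overlap those of *AC005697.1* on the same strand, and 4 pseudogenes (*NOS2P1* to *NOS2P4*) resemble *NOS2*, so that reads of *NOS2* may have been shared with sequences not analysed here. *TMEM88* has a relative on chromosome 1, *TMEM88B*, which was not analysed here.

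The deposited values were whole-number scores with the same median (17) and the same highest value (5585) in every library, so that the depth is unknown and no counting error can be given. Since the scores have no stated correction for gene length, levels were not compared between genes. *JUN*, which was edited, had higher values in libraries labelled KO than in those labelled WT (13 to 19 against 4 and 8 at day 12, and 29 to 39 against 13 and 15 at day 24). The RNA level therefore does not check these labels. The paper reports loss of c-JUN protein in the KO lines by western blot. It also reports no *c-JUN* RNA in KO neural progenitors and COs by quantitative PCR, which differs from the values here. The 2 KO#10 libraries of day 24 resembled each other least (r across genes of 0.909, against 0.946 to 0.957 for the other pairs of replicates). In replicate 1 of KO#10 at day 24, all 4 genes had their highest value among the KO libraries of that day. In these bulk samples, fewer cells of a type and less RNA per cell cannot be told apart.

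*CA4* was higher in KO than in WT at day 12, and much lower at day 24. At day 12 its values were 3 and 6 (WT), 11 and 14 (KO#2), and 14 and 16 (KO#10). At day 24 they were 20 and 15 (WT), while *CA4* was listed at 0 in both KO#2 libraries and had values of 2 and 0 (KO#10). No KO library of *CA4* overlapped with WT, all being above it at day 12 and below it at day 24. The mean was 4.50 ± 2.12 (SD, n = 2) for WT and 13.8 ± 2.06 (SD, n = 4) in KO at day 12, and 17.5 ± 3.54 (SD, n = 2) in WT at day 24. On the log2 (value + 1) scale, which understates changes at low values, KO minus WT was −3.80 at day 24, and −4.20 without replicate 1 of KO#10.

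*NOS2* showed the largest difference of the 4 genes at day 12. Its values at day 12 were 1 and 6 (WT), 30 and 59 (KO#2), and 16 and 44 (KO#10). At day 24 the values were 4 and 4 (WT), 0 and 1 (KO#2), and 2 and 1 (KO#10). The KO libraries were all above WT at day 12 and all below WT at day 24, but no library of day 24 exceeded 4, and *NOS2* was left out of the day 24 fit by the minimum of 10 in 2 libraries. The mean at day 12 was 3.50 ± 3.54 (SD, n = 2) for WT and 37.3 ± 18.5 (SD, n = 4) in KO. The day 24 difference of −1.43 on the log2 scale rested on a few units of the score, whereas the day 12 difference of 3.21 was the second most positive of 10975 genes.

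*TMEM88* had its highest values in WT at day 24. At day 12 the values were 4 and 6 (WT), 15 and 18 (KO#2), and 10 and 19 (KO#10). At day 24 they were 60 and 54 (WT), 9 and 4 (KO#2), and 21 and 3 (KO#10). The groups did not overlap on either day, with KO above WT at day 12 and below WT at day 24. Means were 5.0 ± 1.41 (SD, n = 2) for WT and 15.5 ± 4.04 (SD, n = 4) in KO at day 12, and 57.0 ± 4.24 (SD, n = 2) and 9.25 ± 8.26 (SD, n = 4) at day 24. KO minus WT at day 24 was −2.83 on the log2 scale, and −3.31 without replicate 1 of KO#10.

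*HAPLN1*, alone among the 4 genes, had lower values in KO at day 12 as well as at day 24. At day 12 its values were 13 and 12 (WT), 3 and 11 (KO#2), and 6 and 7 (KO#10). At day 24 they were 105 and 266 (WT), 4 and 1 (KO#2), and 19 and 3 (KO#10). The WT libraries of day 24 stood far above all others, although they differed over 2-fold from each other, and the groups did not overlap on either day. The mean at day 24 was 186 ± 114 (SD, n = 2) for WT and 6.75 ± 8.26 (SD, n = 4) in KO. Without replicate 1 of KO#10, KO minus WT was −5.62 on the log2 scale at day 24.

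**Figure D1:**
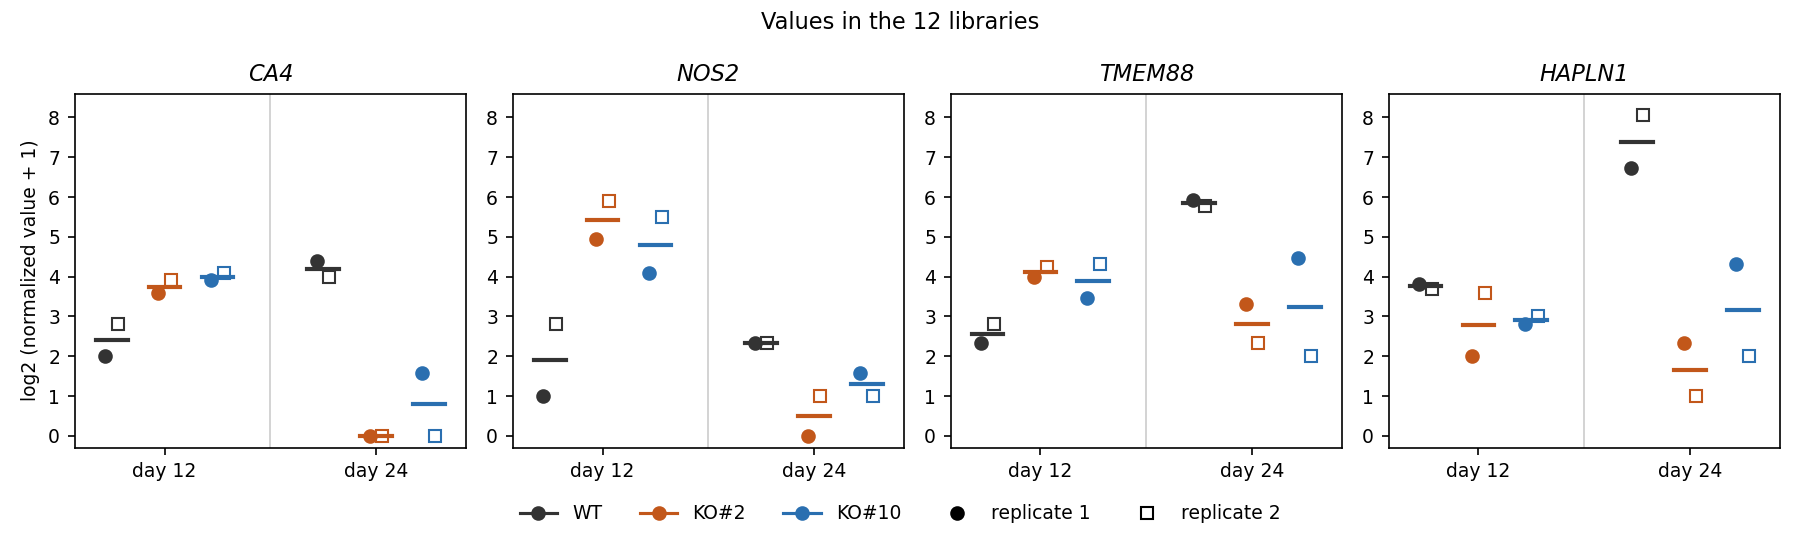
Values of the 4 genes in the 12 libraries, as log2 (normalized value + 1), by day and line (WT black, KO#2 orange, KO#10 blue; filled circles replicate 1, open squares replicate 2; horizontal lines are means of 2 libraries). *CA4*, *NOS2* and *TMEM88* lie higher in KO at day 12 and lower in KO at day 24, while *HAPLN1* lies lower in KO on both days.

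The time courses within a line share the day 24 libraries and are given without a test. In WT, the mean log2 (value + 1) at day 24 was above that of day 12 by 1.79 for *CA4*, 0.42 for *NOS2*, 3.29 for *TMEM88* and 3.64 for *HAPLN1*. For *NOS2* the WT values of the 2 days overlapped (1 and 6 against 4 and 4), and for the other 3 genes they did not. In KO, the corresponding differences were −3.48 for *CA4*, −4.21 for *NOS2*, −0.98 for *TMEM88* and −0.44 for *HAPLN1*. All 4 KO libraries of day 24 lay below all 4 KO libraries of day 12 for *CA4* and *NOS2*. For *TMEM88* and *HAPLN1* the KO values of the 2 days overlapped, and for *HAPLN1* the clones moved in different directions (−1.13 in KO#2 and 0.26 in KO#10). In replicate 1 of KO#10 at day 24, the values of *HAPLN1* (19) and *TMEM88* (21) were above those of every KO library of day 12, and in the other 3 KO libraries of day 24 they were not.

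Ordered by the mean of each line and day, *CA4* was highest in WT at day 24, followed by KO#10 at day 12 (15.0 ± 1.41, SD, n = 2) and KO#2 at day 12 (12.5 ± 2.12, SD, n = 2). Neighbouring groups among these 3 overlapped or shared a value, and the next group, WT at day 12, lay below them without overlap. For *NOS2*, KO#2 at day 12 (44.5 ± 20.5, SD, n = 2) and KO#10 at day 12 (30.0 ± 19.8, SD, n = 2) overlapped with each other and stood above the remaining 4 groups. For *TMEM88*, WT at day 24 stood alone, and each neighbouring pair among the other 5 groups overlapped, down to WT at day 12. For *HAPLN1*, WT at day 24 also stood alone, and WT at day 12 (12.5 ± 0.707, SD, n = 2) lay within the range of KO#10 at day 24 (11.0 ± 11.3, SD, n = 2). KO#2 at day 24 (2.50 ± 2.12, SD, n = 2) was the lowest group for *HAPLN1* and did not overlap with its neighbour, KO#10 at day 12 (6.50 ± 0.707, SD, n = 2).

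The day 24 difference by which these genes were chosen does not use the day 12 libraries, so that KO and WT were tested at day 12. The genes were chosen with earlier results of these data known, so that the day 12 test may not be independent of the choice. KO was compared with WT by limma on log2 (value + 1), over the 8885 genes that reached 10 in 2 or more libraries, and a gene was called at a Benjamini-Hochberg adjusted p below 0.05 and a change of at least 2-fold. *CA4*, *NOS2* and *TMEM88* passed this minimum through the KO libraries alone. None of the 4 genes was called, against 8 of all genes (0.0900%), of which 2 were higher (0.0225%) and 6 were lower (0.0675%) in KO. The unadjusted p was below 0.05 for *CA4*, *NOS2* and *TMEM88*, and for 11.0% of all genes, but this count lends no support, since these 3 genes were let in by the group in which they are high.

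For *NOS2* the log2 fold change at day 12 was 3.21 ± 0.58 (SE, 95% interval 1.87 to 4.54, adjusted p = 0.107), which was the third largest in size of the 8885. For *CA4* the log2 fold change was 1.47 ± 0.27 (SE, 95% interval 0.85 to 2.09, adjusted p = 0.108). For *TMEM88* it was 1.44 ± 0.28 (SE, 95% interval 0.80 to 2.09, adjusted p = 0.128). For *HAPLN1* it was −0.91 ± 0.40 (SE, 95% interval −1.83 to 0.02, adjusted p = 0.461). KO libraries lay above both WT libraries for *CA4*, *NOS2* and *TMEM88*, as for 8.23% of all genes, and below both for *HAPLN1*, as for 8.34%.

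The day 12 result depended on whether the replicate number was used as a block, and libraries with the same number deviated together at that day. Replicate 2 had the higher value of *CA4*, *NOS2* and *TMEM88* in each of the 3 lines. With the replicate block, *CA4* (adjusted p = 0.0255), *NOS2* (adjusted p = 0.0103) and *TMEM88* (adjusted p = 0.0246) were called higher in KO, as were 0.405% of all genes, with the same log2 fold changes. These genes reached the minimum through the KO libraries alone, so that their calls with the minimum lend no support. With the block and no minimum, which was tried after the data had been seen, *NOS2* was still called (adjusted p = 0.0412), and *CA4* (adjusted p = 0.0587) and *TMEM88* (adjusted p = 0.0546) were not. *HAPLN1* was not called with the block and the minimum (adjusted p = 0.223), where 0.394% of all genes were called lower. Over all alternatives the adjusted p ranged from 0.0255 to 0.661 for *CA4*, from 0.0103 to 0.681 for *NOS2*, from 0.0246 to 0.704 for *TMEM88* and from 0.223 to 0.832 for *HAPLN1*. With 2 against 4 libraries, exact permutation of the labels cannot give 1 gene a p below 0.0667.

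The comparisons of the 2 days share no libraries. Of 8297 genes tested on both days, 1742 had every KO library below both WT libraries at day 24, as did 21.8% of all genes tested on that day. Of these 1742 genes, 58 (3.33%) had every KO library above both WT libraries at day 12, as *CA4* and *TMEM88* did, and 290 (16.6%) had every KO library below both, as *HAPLN1* did. Since the 4 genes were chosen by their day 24 difference, these counts are a description of where they stand. *NOS2*, which was below the minimum at day 24, is outside these counts.

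**Figure D2:**
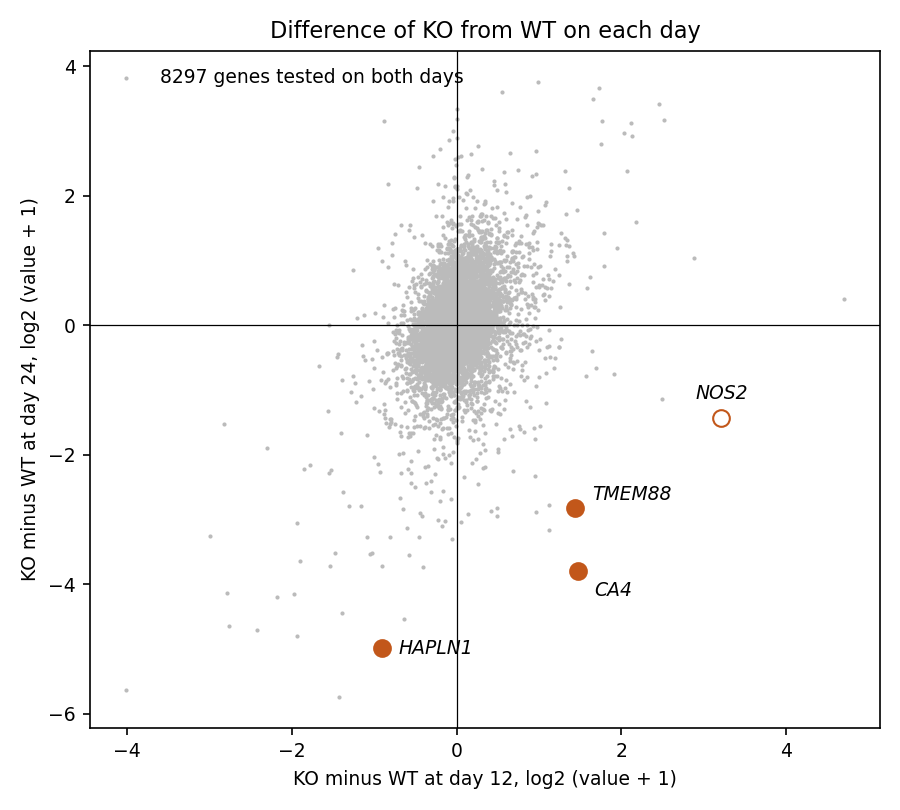
Difference of mean log2 (value + 1) between KO and WT at day 12 (horizontal axis) and day 24 (vertical axis) for the 8297 genes tested on both days (grey points). *CA4* (1.47 and −3.80) and *TMEM88* (1.44 and −2.83) are filled orange points at the lower right, *HAPLN1* (−0.91 and −4.98) is at the lower left, and *NOS2* (3.21 and −1.43), which was not tested at day 24, is an open circle.

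The 2 clones were also compared with each other. At day 24 the low KO values had served to choose the genes, *CA4*, *TMEM88* and *HAPLN1* reached the minimum through both WT libraries, and the difference between the clones is given without a test. KO#2 minus KO#10 was then −0.79 for *CA4*, −0.41 for *TMEM88* and −1.5 for *HAPLN1* on the log2 scale, and for *CA4* it rested on values of 0 to 2. At day 12, in libraries outside the day 24 difference used for the choice, KO#2 minus KO#10 was −0.25 for *CA4* (95% interval −1.03 to 0.52), 0.64 for *NOS2* (95% interval −1.01 to 2.29), 0.23 for *TMEM88* (95% interval −0.58 to 1.05) and −0.11 for *HAPLN1* (95% interval −1.32 to 1.09), each with an adjusted p of 1. The clones overlapped or shared a value for each of the 4 genes on both days. With 1 library left out, KO#2 minus KO#10 at day 24 ranged from −1.59 to 0 for *CA4*, from −1.64 to 0.82 for *TMEM88* and from −2.66 to −0.34 for *HAPLN1*. By limma, 0 genes were called between the clones on either day, while 479 of 9289 genes (5.16%) at day 24 and 115 of 8885 genes (1.29%) at day 12 had an unadjusted p below 0.05.

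The genes whose values followed each of the 4 most closely over the 12 libraries were found by Pearson r of log2 (value + 1) among 9947 genes, as a description of libraries that share lines and days. *SYDE2* (r = 0.961), *STX3* (r = 0.948) and *SLC31A1* (r = 0.945) were the closest to *CA4*. *STX3*, a membrane fusion protein, had values of 15 and 17 (WT) and 19 to 22 in KO at day 12, and of 26 and 39 (WT) and 5 to 8 in KO at day 24. *EMP1* (r = 0.929), *MYADM* (r = 0.925) and *PALS1* (r = 0.918) were the closest to *NOS2*. *EMP1*, an epithelial membrane protein, had values of 1 and 4 (WT) and 11 to 24 in KO at day 12, and of 0 to 4 in all libraries of day 24.

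*RRAS* (r = 0.932), *ACTA2* (r = 0.925) and *TFPI* (r = 0.915) were the closest to *TMEM88*. *ACTA2*, smooth muscle actin, had values of 3 and 7 (WT) and 7 to 15 in KO at day 12, and of 44 and 27 (WT) and 2 to 14 in KO at day 24. *YIPF2* (r = 0.974), *HPN* (r = 0.972) and *MYL12A* (r = 0.971) were the closest to *HAPLN1*. *MYL12A*, a myosin light chain, had values of 369 and 452 (WT) and 46 to 228 in KO at day 24. With Spearman rho in place of Pearson r, 0 of the 3 genes nearest to *CA4*, 1 of 3 for *NOS2*, 0 of 3 for *TMEM88* and 2 of 3 for *HAPLN1* were found again. Among the 4 genes themselves, r was highest for *TMEM88* with *HAPLN1* (0.787), *CA4* with *NOS2* (0.774) and *CA4* with *TMEM88* (0.705), and was 0.0033 for *NOS2* with *HAPLN1*.

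Of the genes nearest to these 4 in the tables, 1 was called. *KDM6B*, a histone demethylase that ends 270 bp before *TMEM88* on the same strand, had values of 15 and 15 (WT) and 14 to 25 in KO at day 24 and was not called (adjusted p = 0.271). *NAA38*, 586 bp beyond *TMEM88*, had values of 48 and 43 (WT) and 30 to 59 in KO at day 24 and was not called (adjusted p = 0.524). *USP32*, at 6428 bp the nearest gene to *CA4*, was not called either (adjusted p = 0.136 at day 24). *KSR1* and *NLK*, the neighbours of *NOS2* at 130328 and 241208 bp, were not called on either day. Of the neighbours tested, *EDIL3*, 219699 bp from *HAPLN1*, was called lower in KO at day 24 (log2 fold change −1.19, adjusted p = 0.0233).

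Other genes of the pathways of these 4 genes were taken from lists that exclude the 4. At day 24, 744 of 9289 genes were called (8.01%), of which 392 (4.22%) were higher and 352 (3.79%) lower in KO, and the median log2 fold change of all genes was 0.0063. Of the 76 list genes tested at day 24, 4 were called higher and 5 lower in KO. The list counts became 8 higher and 11 lower without replicate 1 of KO#10, 5 and 0 without replicate 1 of KO#2, and 0 and 0 without replicate 1 or 2 of WT, or replicate 2 of either clone. They were 7 and 7 with all 12 libraries in 1 fit and 2 and 5 without the variance trend. At day 12, 0 of 59 list genes were called by limma, with or without the replicate block, and 10 of 59 had an unadjusted p below 0.05, against 11.0% of all genes.

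Of the carbonic anhydrases, *CA2*, *CA11* and *CA14* were tested beside *CA4*, and by limma 0 of these 3 were called at day 24 (median −0.30). At an unadjusted p below 0.05 there was 1 of 3, against 37.8% of all genes. *CA11*, a relative without known catalytic activity, had values of 23 and 19 (WT) and 10 to 14 in KO and stayed within 2-fold (log2 fold change −0.82, adjusted p = 0.0318). *CA2*, the cytosolic enzyme, overlapped between KO and WT. Of 8 genes of bicarbonate and proton transport, 2 were called lower in KO than in WT at day 24 (median −0.19). *AQP1*, a water channel known from the choroid plexus, had values of 33 and 21 (WT), 2 and 1 (KO#2) and 12 and 1 (KO#10) at day 24 (log2 fold change −2.95, adjusted p = 0.0476). It would not have reached the minimum of 10 without the WT libraries. *SLC16A3*, which exports lactate with protons, was lower in KO than in WT by 1.31 on the log2 scale (adjusted p = 0.0218).

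Around *NOS2*, 3 of 20 genes of nitric oxide synthesis and signalling were called lower in KO than in WT at day 24 and none higher (median −0.16). *ASS1*, which recycles citrulline towards arginine, had values of 41 and 56 (WT), 5 and 3 (KO#2) and 14 and 6 (KO#10), and its log2 fold change was −2.79 (adjusted p = 0.0218). *SLC7A2*, a transporter of arginine, had values of 12 and 11 (WT) and 1 to 2 in KO, with −2.50 as the log2 fold change (adjusted p = 0.0359). *NOS3*, the endothelial nitric oxide synthase, had values of 11 and 14 (WT), 2 and 1 (KO#2) and 5 and 1 (KO#10), and its log2 fold change was −2.20 (adjusted p = 0.0489). *SLC7A2* and *NOS3* reached the minimum of 10 through the WT libraries alone, so that their calls lend no support, and *ASS1* would not have reached it without WT. *ASS1* did not share the higher day 12 level of *NOS2*, since its values at day 12 were 21 and 21 (WT) and 3 to 12 in KO, with −1.30 as the log2 fold change (adjusted p = 0.319). *CALM2*, one of the genes for calmodulin, which the synthases bind, overlapped between KO and WT at day 24 (adjusted p = 0.863).

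Around *TMEM88*, none of the 3 Dishevelled genes was called at day 24. *DVL1* had values of 19 and 19 (WT) and 15 to 20 in KO (adjusted p = 0.846), and *DVL2* and *DVL3* also overlapped between the groups. Of 16 Dishevelled genes and WNT inhibitors, 1 was called higher in KO than in WT (median 0.14). *AXIN2*, a feedback inhibitor and target of WNT signalling, was that gene and had 11 and 16 (WT), 19 and 38 (KO#2) and 38 and 40 (KO#10), and its log2 fold change was 1.23 (adjusted p = 0.0474). Of 11 WNT effectors and targets, 3 were called higher in KO and none lower (median 0.44). *RSPO2*, a secreted enhancer of WNT signalling, had 6 and 7 (WT), 15 and 60 (KO#2) and 142 and 67 (KO#10), and its log2 fold change was 2.89 (adjusted p = 0.0463). *RSPO1* (log2 fold change 2.33, adjusted p = 0.0242) and *LEF1*, a transcription factor of the pathway (log2 fold change 1.80, adjusted p = 0.0322), were also called higher in KO. *RSPO1* and *RSPO2* reached the minimum of 10 through the KO libraries alone, so that their calls lend no support. *CTNNB1*, which encodes beta-catenin, overlapped between KO and WT (adjusted p = 0.997). At day 12, where *TMEM88* was higher in KO, *AXIN2* had values of 9 and 12 (WT) and 7 to 18 in KO (adjusted p = 0.924).

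**Figure D3:**
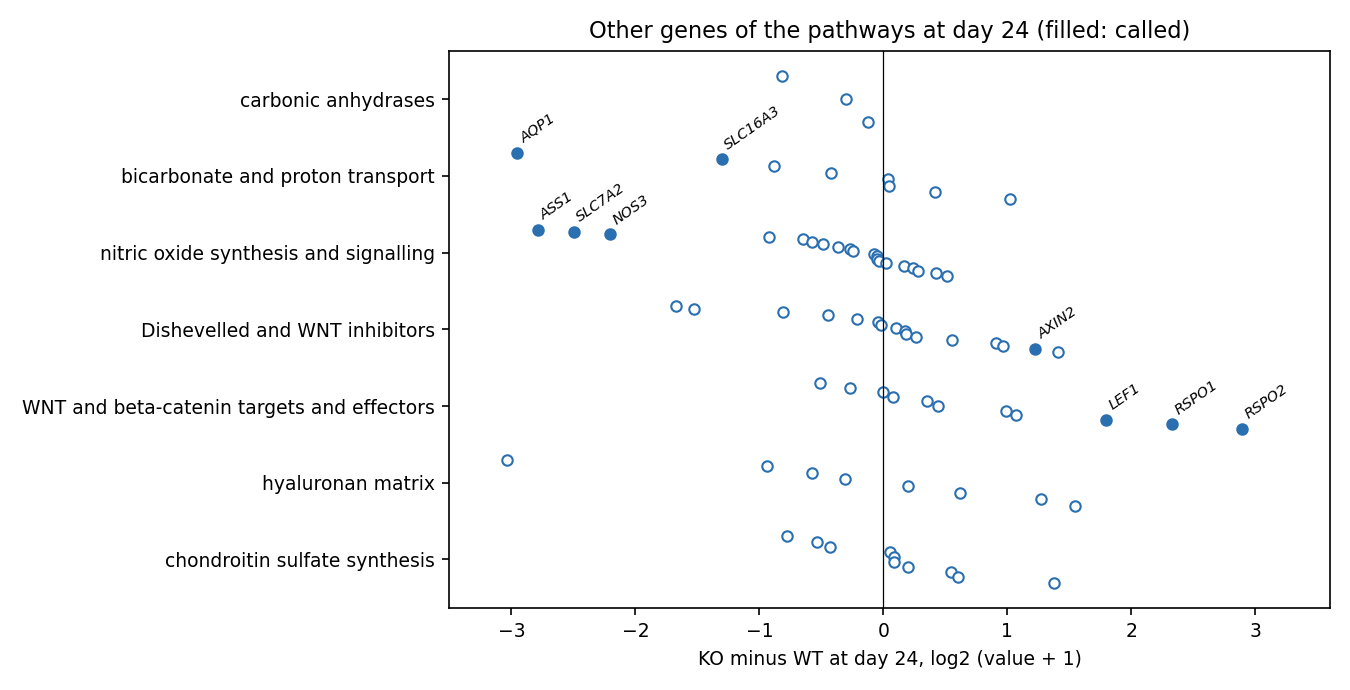
Log2 fold change of KO against WT at day 24 for the 76 other genes of 7 pathway lists, 1 point per gene, sorted within each list; filled points are the 9 genes called. *AQP1*, *SLC16A3*, *ASS1*, *SLC7A2* and *NOS3* lie below 0, and *AXIN2*, *LEF1*, *RSPO1* and *RSPO2* lie above 0.

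Around *HAPLN1*, 0 of 8 genes of the hyaluronan matrix (median −0.06) and 0 of 10 genes of chondroitin sulfate synthesis (median 0.08) were called at day 24 by limma. At an unadjusted p below 0.05 there were 4 of 8 and 5 of 10, against 37.8% of all genes. At day 12, 0 of 7 hyaluronan matrix genes were called by limma, and 5 of 7 had an unadjusted p below 0.05, against 11.0% of all genes. Of these 7, 6 had a negative and 1 a positive log2 fold change (median −0.57). *HAS3*, among them, reached the minimum of 10 at day 12 through the WT libraries alone. *VCAN*, which encodes versican, a proteoglycan that *HAPLN1* links to hyaluronan, is also the nearest gene to *HAPLN1*, 55502 bp away on the opposite strand. At day 24 its values were 60 and 69 (WT), 167 and 369 (KO#2) and 83 and 250 (KO#10). The *VCAN* values of KO were all above those of WT, the side opposite to *HAPLN1*, but *VCAN* was not called (log2 fold change 1.54, adjusted p = 0.0827). At day 12 *VCAN* had 142 and 124 (WT) and 77 to 106 in KO (adjusted p = 0.267). *HAS2*, a hyaluronan synthase named here after its values were seen, had 34 and 44 (WT), 5 and 1 (KO#2) and 22 and 1 (KO#10) at day 24, without overlap and without a call (log2 fold change −3.03, adjusted p = 0.0699). *NCAN*, the proteoglycan neurocan, also named after its values were seen, overlapped between the groups (adjusted p = 0.274). *FBLN1*, a binding partner of versican, overlapped as well at day 24 (adjusted p = 0.531). At day 12 *FBLN1* had 130 and 117 (WT) and 41 to 69 in KO, without overlap and without a call (log2 fold change −1.15, adjusted p = 0.128).

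**Figure D4:**
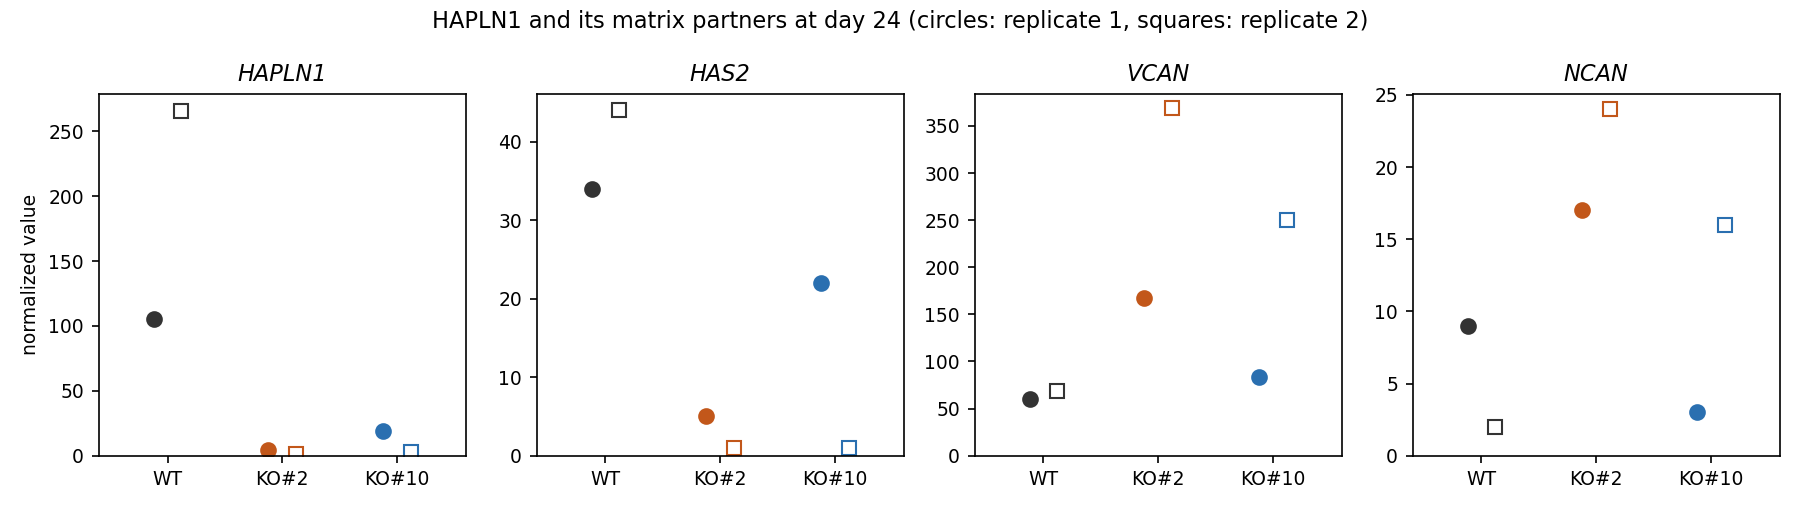
Normalized values of *HAPLN1*, *HAS2*, *VCAN* and *NCAN* in the 6 libraries of day 24 (circles replicate 1, squares replicate 2), on a linear axis that starts at 0 and differs between panels. *HAPLN1* (WT 105 and 266) and *HAS2* (WT 34 and 44) lie higher in WT, *VCAN* (WT 60 and 69) lies higher in KO, and *NCAN* overlaps.

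Markers of other cell types differed between KO and WT at day 24 together with the 4 genes, and their part in these differences was not tested. Some markers reached the minimum of 10 only through the group in which they were high, so that their calls lend no support. Of all genes tested at day 24, 3.79% were called lower and 4.22% higher in KO. Each sum below gives most weight to the genes with the highest scores. The summed value of 5 endoderm and liver markers was 6405 to 6500 in WT and 33 to 1144 in KO at day 24 (2 of 5 called lower), and 3 to 15 in WT and 1 to 19 in KO at day 12. Of the day 24 sums, *AFP* alone gave 5585 in both WT libraries, the highest score of any library, 42 and 1 (KO#2) and 902 and 0 (KO#10). *AFP* was not called (adjusted p = 0.064). Of this list, *HNF4A* was at 0 in WT at day 12, and *SOX17*, *FOXA2*, *GATA4*, *GATA6* and *CER1* were not analysed here. The 2 endothelial markers analysed summed to 51 to 54 in WT and 10 to 29 in KO at day 24 (2 of 2 called lower), while *PECAM1* and *CDH5* were not analysed here. The 3 cardiac markers analysed summed to 84 to 88 in WT and 12 to 46 in KO at day 24 (0 of 3 called by limma, 1 at an unadjusted p below 0.05, against 37.8% of all genes), and *HAND1* and *ISL1* were at 0 in every library of day 12. Of the day 24 sums, *HAND1* alone gave 70 and 67 (WT), 4 and 0 (KO#2) and 25 and 0 (KO#10). *ISL1* and *MEF2C* overlapped between KO and WT at day 24. None of the 8 macrophage markers was analysed here.

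The 8 mesenchyme and cartilage markers summed to 2100 to 2480 in WT and 239 to 2955 in KO at day 24 (0 of 8 called by limma, 4 at an unadjusted p below 0.05, against 37.8% of all genes), with *PRRX1* at 0 throughout day 12. Replicate 1 of KO#10, which had the highest KO value of all 4 genes, also had the highest KO sum of the endoderm (1144), endothelial (29), cardiac (46), mesenchyme (2955) and epithelial (246) markers, and the lowest KO sum of the neural markers (497). The pluripotency sum of that library (74) lay within the range of the other KO libraries of day 24 (58 to 88). The 6 surface ectoderm and epithelial markers summed to 581 to 758 in WT and 44 to 246 in KO at day 24 (5 of 6 called lower, against 3.79% of all genes). The 9 pluripotency markers summed to 509 to 969 in WT and 58 to 88 in KO at day 24 (8 of 8 tested called lower, against 3.79% of all genes). At day 12 they summed to 960 to 1157 in WT and 563 to 641 in KO (3 of 8 called lower, against 0.0675% of all genes). The 10 neural markers, which check the labelled tissue, summed to 296 to 608 in WT and 497 to 1805 in KO at day 24 (3 of 10 called higher, against 4.22% of all genes). Of these sums, *MAP2* alone gave 64 and 22 (WT), 668 and 1009 (KO#2) and 95 and 750 (KO#10), while *OTX2* and *FABP7* had negative log2 fold changes. At day 12 the sums were 582 to 682 in WT and 767 to 900 in KO (0 of 9 called by limma). At an unadjusted p below 0.05 there were 4 of 9, against 11.0% of all genes. With 1 library of day 24 left out, the genes called ranged from 0 to 8 for the pluripotency list (0 without replicate 2 of WT or of KO#2), from 0 to 6 for the epithelial list, from 0 to 5 for the endoderm list, from 0 to 2 for the endothelial list, from 0 to 1 for the cardiac list and from 0 to 6 for the neural and the mesenchyme list. Without replicate 1 of KO#10, 5 mesenchyme markers were called lower and 1 higher.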

How the data were processed

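RNA-seq values of 12 CO libraries (H1, KO#2 and KO#10, day 12 and day 24, 2 replicates each) were used. The authors deposited a whole-number score per gene and library for 10976 genes, which is not a raw count. The submitters' processing notes name bcl2fastq, Bowtie2, RSEM and the build mm10, although the samples are human. Every identifier was found in GENCODE release 29 (GRCh38), where 3940 intervals are identical, so that the coordinates were read as GRCh38. The normalization, the annotation and any use of the strand in counting are not given in the sources used here.

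Groups and replicate numbers came from the sample labels. Scores were transformed as log2 (value + 1). Genes that reached 10 in 2 or more libraries of a comparison were fitted with limma 3.58.1 (R 4.3.3) with a trend of the variance, with Benjamini-Hochberg adjustment of p over all genes tested. The clones were compared in a fit with 3 groups. Genes were called at an adjusted p below 0.05 and a log2 fold change of 1 or more in size. Same-numbered libraries of different lines shared their deviations from the line means at day 12 (r across genes 0.459, 0.429 and 0.598), so that the numbers were taken to pair them. At day 24 they shared them less (0.212, −0.106 and 0.346). The numbers come from the sample labels, which do not say what a number stands for. The pairing was inferred from the day 12 values that the block was then used to test.

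The 4 genes and all gene lists were chosen with earlier results of these data known. Beside the 4 genes, the text names for each the 3 genes with the highest r, from each list up to 3 genes called in each direction by size of change and up to 3 not called by mean value, and the neighbouring genes. The other genes of each list are given as counts, except *DVL1*, *DVL2*, *DVL3*, *HAS2*, *HAS3*, *NCAN*, *AFP*, *HAND1*, *ISL1*, *MEF2C*, *MAP2*, *OTX2*, *FABP7* and the markers named as not analysed or at 0. The alternatives were a pseudocount of 0.1, a minimum of 5 or none, the replicate block, no variance trend, all libraries in 1 fit, the clones as separate groups, unadjusted p-values, each library left out in turn and, added after the data had been seen, the block without a minimum and the list counts with each library left out. Python 3.11.15 was used for tables and figures, with numpy 2.4.6, pandas 2.3.3 and matplotlib 3.10.9.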

Additional observations from a re-analysis of the deposited data

Results flagged for a closer look

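Among the 4 KO libraries of day 24, replicate 1 of KO#10 stood apart from the others for *CA4* (a value of 2, with the other 3 listed at 0) and for *HAPLN1* (a value of 19, with the others at 1 to 4). The rule used marks about 1 in 20 groups of independent, normally distributed values. These are rounded scores of 2 clones, from libraries used to choose the genes, so that its rate here is unknown. For *CA4* the gap is 2 units of a rounded score.

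Every KO library lay on opposite sides of WT on the 2 days for 3 of the 4 genes, with KO to WT differences on the log2 (value + 1) scale of 1.47 at day 12 and −3.80 at day 24 for *CA4*, of 3.21 and −1.43 for *NOS2*, and of 1.44 and −2.83 for *TMEM88*. The difference between the days was not tested, because the day 24 values were used to choose the genes.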

How the results depend on the processing

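The replicate number was taken to pair the libraries at day 12, on the basis of the same values that were then tested. The replicate block raised the number of genes called there from 8 to 71. It moved *CA4* (1.47), *NOS2* (3.21) and *TMEM88* (1.44) past the threshold with unchanged fold changes, as did unadjusted p-values, and it changed no other call of the 4 genes. *CA4*, *NOS2* and *TMEM88* had reached the minimum through the KO libraries alone, so that this move lends no support. At day 24, where same-numbered libraries deviated together less, the block gave 661 genes in place of 744. The day 12 count was 3 without a filter, 16 without the variance trend, 1 with the clones as separate groups, 145 with unadjusted p-values and 1 to 3 with 1 library left out. With the block and no filter, added after seeing the data, it was 32, and of the 4 genes *NOS2* (3.21) alone was past the threshold. Where 1 WT library was left out, the other was assumed to vary like the KO libraries. The day 24 count of 744 ranged from 0 (without replicate 2 of WT) to 1355 (without replicate 1 of KO#10) with 1 library left out, and was 95 without replicate 1 of WT, 266 and 15 without replicates 1 and 2 of KO#2, and 23 without replicate 2 of KO#10. Between the clones, unadjusted p-values gave 79 genes at day 24 and 7 at day 12, and leaving out 1 library gave 0 to 2 at day 24. A pseudocount of 0.1 changed the day 24 difference of *CA4* to −6.35 and that of *NOS2* to −2.53, and their day 24 minus day 12 differences in KO to −6.00 and −5.56. With 1 library left out, the KO to WT difference at day 12 kept its sign for all 4 genes (1.06 to 1.87 for *CA4*, 2.30 to 4.11 for *NOS2*, 1.20 to 1.69 for *TMEM88*, −1.15 to −0.62 for *HAPLN1*). Leaving out 1 library turned the sign of KO#2 minus KO#10 for *TMEM88* at day 24 (−1.64 to 0.82, and 0.09 without replicate 2 of KO#2) and for *NOS2* (−0.061 to 1.34), *TMEM88* (−0.20 to 0.66) and *HAPLN1* (−0.90 to 0.68) at day 12. It also turned the change with time of *NOS2* in WT (−0.49 to 1.32) and of *HAPLN1* in KO (−1.07 to 0.033). Apart from the counts that fall with fewer libraries, the cause of these shifts was not tested. With 2 WT libraries per day, rounded scores and unknown depth, values of a few units carry little information on size.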
